A study of Mus musculus with 12 samples.

Results

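A set of 374 gene symbols in mouse liver carry no gene name in the Nascent-Seq table. Each is listed under 2 capital letters followed by 6 digits, for most the database number of a cDNA clone. Each lay away from every symbol with an ordinary name. They were chosen from the 21490 symbols of the table by 3 criteria: such a name, a highest value over 6 rpbp among the 12 libraries, and a span from start to end of transcription that overlaps no ordinarily named symbol. The unit rpbp is the number of reads per base pair, averaged over the merged exons of a symbol. Symbols whose spans overlap each other were merged, which gave 298 loci, 243 of 1 symbol and 55 of several (131 symbols). A short stretch of chromosome 19 was left out by the rule, with its 4 clone-named symbols. Because the highest value chose the members, their levels are a description and carry no test.

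The libraries came from the livers of adult C57BL/6 mice, 3 to 6 months old, kept for at least 2 weeks in 12 hr of light and 12 hr of dark. Livers were collected at ZT0, ZT4, ZT8, ZT12, ZT16 and ZT20 (ZT0 is lights on), with 2 replicates at each time, and all mice shared this strain and schedule. Nascent RNA was taken from the chromatin pellet of purified nuclei and cleared of polyadenylated RNA before sequencing. The labels do not say whether the replicates are separate animals, so the p-values below measure the spread between these libraries. Each ZT8 and ZT20 library was sequenced in 2 lanes and each of the other 8 in 1 lane, so that these times and the number of lanes cannot be told apart.

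Such names mostly mark transcripts that come from a cDNA or small RNA collection. Some are parts of protein-coding genes named later, others are long non-coding RNAs, hosts of small RNAs such as microRNAs (short RNAs that repress mRNAs through a seed at their 5′ end) and snoRNAs (guides of rRNA modification), or transcription past the end of a gene. Nascent RNA reports transcription while it takes place, so it shows unstable transcripts that hardly accumulate in mature RNA. In liver the circadian clock, a feedback loop of transcription factors, times the transcription of many genes to particular hours of the day.

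Most of the loci overlapped a gene of the GENCODE M1 annotation of the same genome under another name. Of the 298 loci, 172 (57.7%) overlapped a protein-coding gene, 65 a long non-coding RNA and 53 no annotated gene, while 8 overlapped another class such as a pseudogene. Thus "away from named genes" holds for the names of the table, and for the annotation only in these 53 loci. Among the 172 coding loci, 67 shared over 0.9 of their extent with the gene and 40 shared under 0.1. In 21 coding loci at least 90% of the span was untranslated exon. By name, 232 members began with AK and 91 with BC, both series of cDNA clones. Another 25 began with DQ, and 21 of these were under 100 bp long. Spans ran from 22 to 362220 bp with a median of 7856.5 bp (n = 374). The members were 5.95% of the 6284 symbols over 6 rpbp and 16.1% of the 2316 clone-named symbols that lay away from named ones at any level, of which 103 had no signal (a value of 0) in any library.

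The summed signal of the members was 5033.1 to 8295.8 rpbp per library, or 3.96 to 5.38% of the whole table. All 8 hepatocyte markers (among them Alb, Cps1 and Hnf4a) were over 6 rpbp, with a sum of 837.6 to 2204.0 per library. The other lists were far lower, with 4 of 5 Kupffer cell markers over 6 rpbp (sum 19.2 to 53.1), 1 of 4 endothelial (8.5 to 20.7), 1 of 4 lymphocyte (2.7 to 9.5), 0 of 4 stellate cell (8.0 to 12.8) and 0 of 3 cholangiocyte markers (0.8 to 2.2). In a piece of liver, fewer cells of a type and less RNA per cell cannot be told apart. Both ZT8 libraries stood apart. Replicate 1 had the highest sums of Kupffer cell, endothelial and lymphocyte markers, and replicate 2 the lowest of Kupffer cell and endothelial markers. In replicate 1 the macrophage genes Cd5l and Emr1 were at 23.9 and 17.3 rpbp and the Kupffer cell gene Clec4f at 1.6, the lowest of the 12 libraries. The part of these cell types in the results was not tested. Replicate 2 also had a median log2 deviation from the mean of the 12 libraries of 0.68 in the most GC-poor of 20 bins of symbols and of -0.42 in the most GC-rich. It held the highest value of 73 members, against 13 to 49 in the others, and results without it are given below. The signal does not separate strands, so a member and a transcript on the opposite strand count together.

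Members and all symbols over 6 rpbp had to pass the same threshold, so like levels were in part fixed by the rule. Of the 2316 clone-named symbols away from named ones, 374 passed it (16.1%), against 6284 of all 21490 symbols. The median of the members' means was 6.78 rpbp (0.817 to 432.1), against 7.63 for all 6284 symbols over 6 rpbp. Of the 374, 118 (31.6%) were over 6 rpbp in all 12 libraries and 70 in 1 library only, 12 of these in ZT8 replicate 2. At 76 members (20.3%) the threshold was passed at 1 time point only, as at 858 of all 6284 symbols (13.7%). These entered the set through the time at which they were high, so a later test over time drew on the values that admitted them. They make up 12 of the 54 members called rhythmic and 11 of the 43 called by limma below. Members over 6 rpbp at some but not all time points share this limit in part. By class, the median over loci was 7.40 rpbp for coding loci, 6.47 for long non-coding loci, 5.45 where no gene is annotated and 5.75 for the rest.

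A snoRNA, a host of snoRNAs and a group of overlapping BC symbols with no annotated gene led the levels. AF357401 (chr4:131866222-131866283, mm9) lies in Snora61, a snoRNA inside the host gene Snhg12, and averaged 432.1 rpbp. Its values ran from 99.1 at ZT12 to 1816.9 at ZT20, both in replicate 1, and at ZT20 the other replicate was at 229.4. The pair of ZT20 libraries thus differed by more than all the time-point means did. AK009175, at the host Snhg12 and merged into the same locus, had time-point means of only 4.3 to 6.65 rpbp. Mature snoRNA and nascent RNA cannot be told apart in the signal of AF357401. AK088959, at the snoRNA host Snhg4 on chromosome 18, had 275.1 to 734.3 rpbp, and its highest values were those of ZT20 (734.3 and 652.4). BC039766, 1 of 5 overlapping BC symbols at chr7:148091913-148093866 with no annotated gene, had 238.2 to 476.7 rpbp, with both ZT12 libraries the highest of their series.

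The next levels belonged to mitochondrial and coding genes. AK140265 lies in mt-Rnr1, the small ribosomal RNA of mitochondria, and had 59.4 to 178.8 rpbp. Mature and nascent RNA cannot be told apart there either. AI132487 is Slc25a47, a mitochondrial carrier of liver, and had 128.0 and 118.3 rpbp at ZT8 against 45.8 and 22.2 at ZT16. These ZT8 values lay above all others, and the 6 time points differed by limma (adjusted p = 0.0388). BC031353, an annotated coding gene on chromosome 9, had 44.4 to 106.5 rpbp, with both ZT12 libraries highest.

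**Figure D1:**
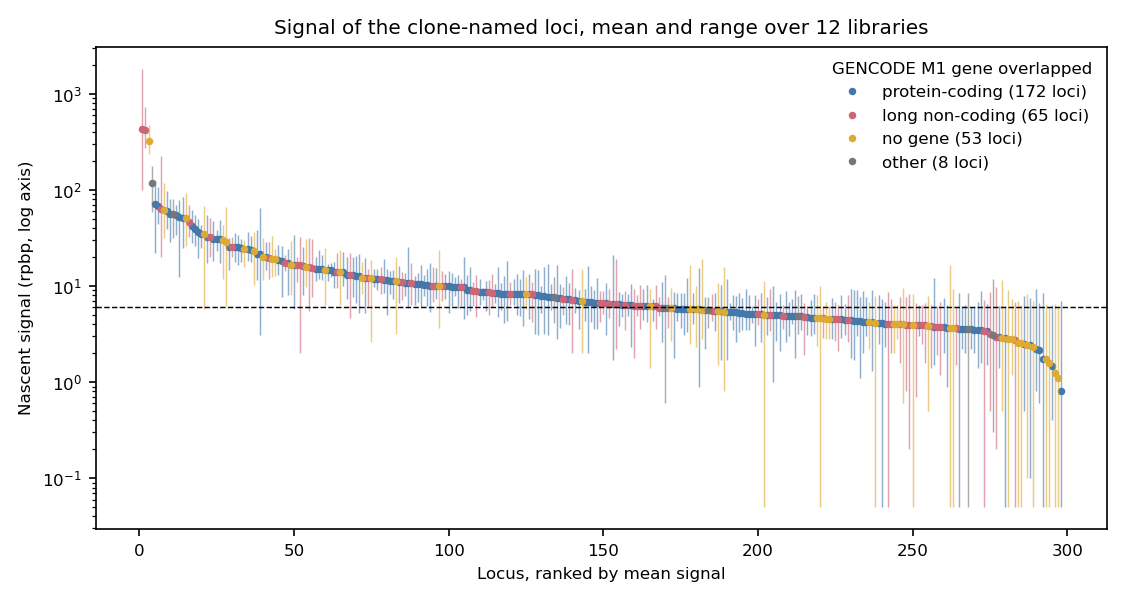
Mean (point) and range (line) over the 12 libraries of the symbol that represents each locus, in rpbp on a log axis, with loci ranked by mean, colours for the annotation class, values of 0 drawn at 0.05 and the threshold of 6 rpbp dashed. The highest locus, AF357401, spans 99.1 to 1816.9 rpbp, while the median of the member means is 6.78.

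At the threshold, AK046940 (in Dennd4a), AK082757 and BC002059 entered with a highest value of 6.1 rpbp each, and AK007907, AK013936 and AK192218 stayed out with 6.0 each. The flattest loci were AK051887 (in Eif4e3, a cap-binding protein), BC010304 (Fam120a) and AK139063 (in the long non-coding Dleu2). The highest of the 12 values was 1.32 times the lowest in AK051887, 1.40 times in BC010304 and 1.45 times in AK139063. AK139063, for example, stayed between 14.3 and 20.8 rpbp throughout the day.

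The study asked how far rhythms of mRNA arise from transcription, and each member was tested for a 24-hr rhythm as the study did. All mice were kept in light and dark, so rhythms set by the clock and by the light cycle cannot be told apart. F24 is the share of the variance of the 12 values that lies in a 24-hr wave, and the phase is the hour of its peak. The call of a rhythm asked for a permutation p under 0.05, for an F24 above 0.45 and for a ratio of highest to lowest value above 1.5. The p of this call is not adjusted. Of the 374 members, 54 (14.4%) were rhythmic, against 15.2% of all 6284 symbols tested. With F24 over 0.6 and a ratio over 7/4, 25 members (6.68%) passed, against 6.38% of all. With the permutation p adjusted over all 6284 symbols, only BC013672 (adjusted permutation p = 0.0419), BC037112 (0.0464) and AI428936 (0.0464) remained under 0.05, 0.802% of the members against 0.716% of all. BC013672 and AI428936 had each passed 6 rpbp in 1 library only, at 6.4 rpbp in ZT4 replicate 1 and in ZT16 replicate 1. The members were thus called about as often as the table as a whole.

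Rhythmic members lay in 45 of the 298 loci. By annotation they were in 20 of 172 coding loci (11.6%), 13 of 65 long non-coding loci, 12 of 53 loci with no gene (22.6%) and 0 of 8 others. A difference between these classes was not tested. With 1 symbol taken per locus throughout the table, 41 of 288 members were rhythmic (14.2%) against 15.6% of all. Leaving out any 1 library gave between 43 and 70 rhythmic members, the most without ZT8 replicate 2, and 28 of the 54 kept their call without each library in turn.

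The replicates were also run as separate series of 6 values, with all orders of the values enumerated. At an exact p under 0.05, 17 members (4.55%) passed in series 1 against 5.03% of all, and 16 (4.28%) in series 2 against 3.07% of all. BC013672 and BC011467 passed in both (0.535% against 0.366% of all), and the smallest exact p that 6 values allow is 0.0167. Phases of the 2 series lay within 4 hr of each other in 227 members (60.7%, against 60.4% of all). Of the 54 rhythmic members, 53 had such phases (98.1%, as of all 954 rhythmic symbols), which the call over all 12 values favours. The exception was AI451557, whose series peaked 4.57 hr apart.

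The rhythmic loci peaked at most hours of the day. Among the 42 loci whose highest symbol was itself rhythmic, 13 peaked between 0 and 4 hr (31.0%, against 23.9% of the 954 rhythmic symbols of the table), 5 between 4 and 8 hr (11.9% against 23.9%), 11 between 8 and 12 hr (26.2% against 13.1%), 4 between 12 and 16 hr, 1 between 16 and 20 hr and 8 between 20 and 24 hr. The interval from 16 to 20 hr was the emptiest in the table too, with 37 of the 954. A difference between these distributions was not tested. For reference, in the same libraries Nr1d1, a repressor of the clock, peaked at 6.22 hr, Per2, another repressor, at 14.3 hr and Arntl, which encodes BMAL1, at 22.5 hr.

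**Figure D2:**
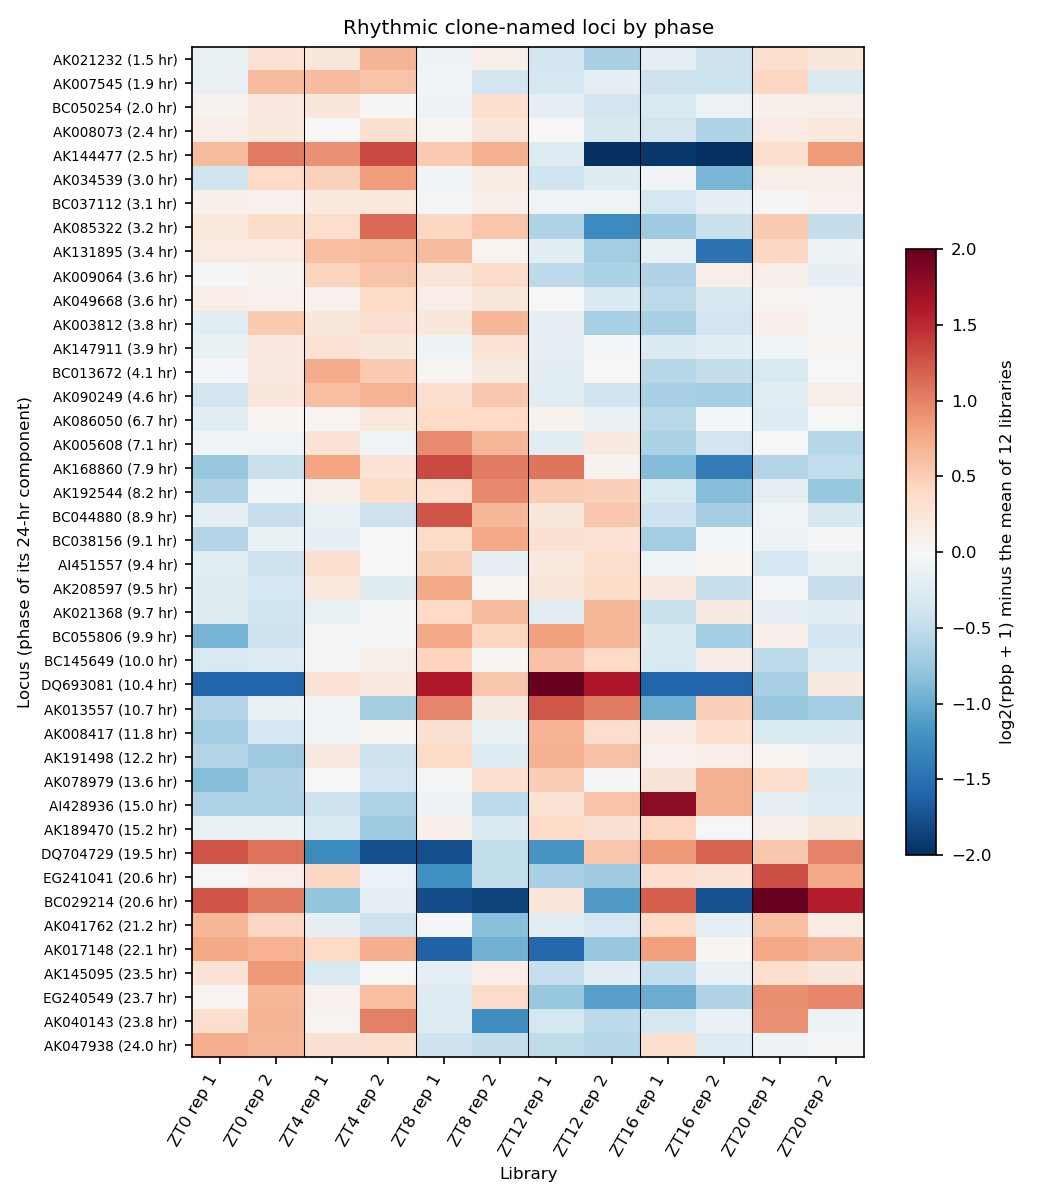
Signal of 42 rhythmic loci in the 12 libraries, each as log2(rpbp + 1) minus its mean over the libraries and ordered by phase, with time point and replicate on the horizontal axis. The high values move from ZT0 and ZT4 at one end to ZT20 at the other, with 1 locus peaking between 16 and 20 hr.

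The largest F24 was that of a long non-coding locus. AK144477 (chr4:103055105-103164793, Gm12718 on the plus strand) had 19.5 and 26.2 rpbp at ZT0, 24.0 and 32.2 at ZT4, 18.1 and 20.8 at ZT8, 10.1 and 2.3 at ZT12, 2.5 and 2.0 at ZT16, and 15.8 and 23.0 at ZT20 (replicates 1 and 2, in this order here and below). Both ZT4 libraries were the highest of their series and all 4 values of ZT12 and ZT16 lay below all others. Its F24 was 0.820 with a phase of 2.48 hr (permutation p = 0.0006, adjusted 0.0571). By limma the time points differed (adjusted p = 0.0122), and so did the 4 times sequenced in 1 lane (adjusted p = 0.0372). The nearest named symbol over 6 rpbp, Oma1, a mitochondrial protease, lay 16071 bp away and peaked at 0.978 hr with an F24 of 0.491.

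Among the other loci of the early light were coding genes. BC037112, in Fam193a, had 15.8 and 15.7 rpbp at ZT0, 17.0 and 17.1 at ZT4, 14.5 and 15.8 at ZT8, 14.0 and 13.8 at ZT12, 11.3 and 12.7 at ZT16, and 14.4 and 15.6 at ZT20. Replicates lay close together and ZT4 was highest and ZT16 lowest in both series, but the highest value was 1.51 times the lowest, just over the limit. F24 was 0.804 with a phase of 3.09 hr (permutation p = 0.0003), and the call was lost without ZT16 replicate 1, with the libraries rescaled and with the GC trend removed. BC013672, which is Ddx60, a helicase of the antiviral response, had 3.3 and 4.0 rpbp at ZT0, 6.4 and 5.4 at ZT4, 3.5 and 4.0 at ZT8, 2.8 and 3.4 at ZT12, 2.0 and 2.2 at ZT16, and 2.6 and 3.4 at ZT20. F24 was 0.745, the phase 4.15 hr and the permutation p = 0.0002.

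AK090249 overlaps Mtx3, a metaxin of the mitochondrial outer membrane, and had 7.8 and 8.4 rpbp at ZT4 against 2.7 and 2.6 at ZT16. The ZT4 libraries were the highest of their series and the ZT16 libraries the lowest (F24 = 0.743, phase 4.58 hr, permutation p = 0.00501). AK049668, on chromosome 5 with no annotated gene, had 4.8 and 6.2 rpbp at ZT4 and 2.8 and 3.4 at ZT16. Its F24 was 0.693 with a phase of 3.63 hr (permutation p = 0.00161), and the call was lost with the GC trend removed. It was over 6 rpbp in 1 library only, as were AK005608 and BC099567 below. The limma adjusted p was 0.0365 for AK090249 and 0.189 for AK049668.

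Toward the middle and end of the light, unannotated loci stood beside coding loci. AK168860 (chr19:37332921-37338577, no annotated gene, merged with AK016444) had 1.5 and 2.1 rpbp at ZT0, 6.3 and 4.1 at ZT4, 9.5 and 7.6 at ZT8, 7.8 and 3.4 at ZT12, 1.3 and 0.6 at ZT16, and 1.8 and 2.0 at ZT20. ZT8 was highest and ZT16 lowest in both series, with a phase of 7.86 hr (F24 = 0.754, permutation p = 0.0029). The time points differed by limma (adjusted p = 0.015), and ZT8 exceeded ZT20, each sequenced in 2 lanes (adjusted p = 0.0255). AK016444 shares this sequence and its F24 of 0.734 is no separate result. Ide, the insulin-degrading enzyme, lay 4653 bp away, had 4.8 to 9.3 rpbp, with ZT8 replicate 2 the highest and replicate 1 at 5.3, and was not rhythmic (F24 = 0.0284).

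AK192544 (chr19:10138122-10138507) has no annotated gene and lies 146 bp past the 3′ end of Fads2, the delta-6 desaturase of polyunsaturated fatty acids. It had 30.9 and 45.4 rpbp at ZT0, 51.2 and 61.3 at ZT4, 60.5 and 92.9 at ZT8, 67.7 and 66.0 at ZT12, 38.0 and 25.8 at ZT16, and 41.0 and 27.6 at ZT20. The 6 libraries from ZT4 to ZT12 all lay above the other 6 (F24 = 0.732, phase 8.21 hr, permutation p = 0.00257). The limma adjusted p was 0.0674. BC145649, at the annotated gene AB041803 on chromosome 6, had 62.1 and 54.3 rpbp at ZT12 and 28.2 and 34.1 at ZT20. Its phase was 10.0 hr and its F24 0.714 (permutation p = 0.00391).

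AK008417 and AK189470 lie wholly in the 3′ untranslated part of Foxo3, a forkhead factor of insulin signalling, and of Mxd4, a repressor of the MYC network. AK008417 (chr10:41901651-41905282) rose from 4.5 and 6.0 rpbp at ZT0 to 13.2 and 10.4 at ZT12, and had 6.2 and 6.3 at ZT20. Both ZT12 values exceeded all others, and the phase was 11.8 hr (F24 = 0.740, permutation p = 0.00256). AK189470 (chr5:34516539-34517340) peaked later, at 15.2 hr, with 8.9 and 8.3 rpbp at ZT12, 9.2 and 6.6 at ZT16, and 5.1 and 3.6 at ZT4 (F24 = 0.707, permutation p = 0.00498). It was the only 1 of the 12 loci named here for their F24 with a phase between 12 and 20 hr.

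AK017148 and BC029214 had their phase in the late dark and their lowest values at ZT8. AK017148 (chr5:53364251-53385674, no annotated gene) had 17.9 and 16.8 rpbp at ZT0, 13.6 and 17.2 at ZT4, 2.6 and 4.7 at ZT8, 2.7 and 5.5 at ZT12, 18.5 and 10.3 at ZT16, and 17.7 and 16.7 at ZT20. The 4 libraries of ZT8 and ZT12 lay below all others, while the means of ZT0 and ZT20 were nearly the same and series 1 was highest at ZT16 and series 2 at ZT4. F24 was 0.786 with a phase of 22.1 hr (permutation p = 0.00313), the limma adjusted p was 0.0122 and ZT20 exceeded ZT8 (adjusted p = 0.0275). Its nearest named symbol over 6 rpbp lay 112647 bp away.

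BC029214 (chr2:25315008-25316614, coding) had 34.2 and 29.1 rpbp at ZT0, 7.6 and 11.9 at ZT4, 3.3 and 3.1 at ZT8, 16.5 and 5.7 at ZT12, 32.7 and 3.4 at ZT16, and 65.4 and 42.9 at ZT20. Both ZT20 values exceeded all others, while the replicates of ZT16 lay far apart. F24 was 0.682 with a phase of 20.6 hr (permutation p = 0.00464). By limma the 6 time points did not pass the threshold (adjusted p = 0.0700), whereas ZT20 against ZT8 did (adjusted p = 0.00505). Of the 12 loci, 11 kept the rhythmic call without each library in turn, BC037112 being the exception.

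Of the 12 loci with a rhythmic member and no annotated gene, 7 were beyond those with the largest F24 and are given here after their values were seen, beside DQ693081 (below). BC055806 (chr19:56675526-56677992), 2189 bp past the end of Nhlrc2, had 9.6 and 7.4 rpbp at ZT8 and 10.1 and 8.9 at ZT12, above all other libraries, and 2.3 and 3.7 at ZT0. It peaked at 9.92 hr (F24 = 0.677, permutation p = 0.00924, limma adjusted p = 0.0291), with Nhlrc2 at 9.89 hr. AK041762 (chr15:85476513-85498105) had 9.5 and 7.8 rpbp at ZT0, 9.0 and 6.3 at ZT20 and 5.5 and 2.7 at ZT8 (phase 21.2 hr, F24 = 0.630). Its nearest named symbol, 67888 bp away, was Ppara, the fatty acid-sensing nuclear receptor of liver, whose phase was 8.08 hr.

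Early in the light peaked 4 of these 7, AK008073 at 2.41 hr, AK034539 at 3.02 hr, AK085322 at 3.22 hr and AK131895 at 3.35 hr. AK085322 had 8.2 and 14.9 rpbp at ZT4 against 3.7 and 2.0 at ZT12, and AK131895 had 9.1 and 9.3 at ZT4 against 5.0 and 1.4 at ZT16. AK008073 was higher in level, with 24.1 and 30.0 rpbp at ZT4 and 18.6 and 15.6 at ZT16, and was lowest at ZT16 in both series. AK034539 had 22.3 and 29.3 rpbp at ZT4, the highest of each series. AK040143 (phase 23.8 hr) had replicates far apart at ZT20, at 10.1 and 4.5 rpbp, and at ZT4, at 5.1 and 10.8. Its call and those of AK034539 and AK008073 were lost in 6 or more of the 12 fits that left out 1 library. They were also lost with the replicate block for AK040143, with lanes as a block and the GC trend removed for AK034539, and with the libraries rescaled and the GC trend removed for AK008073.

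**Figure D3:**
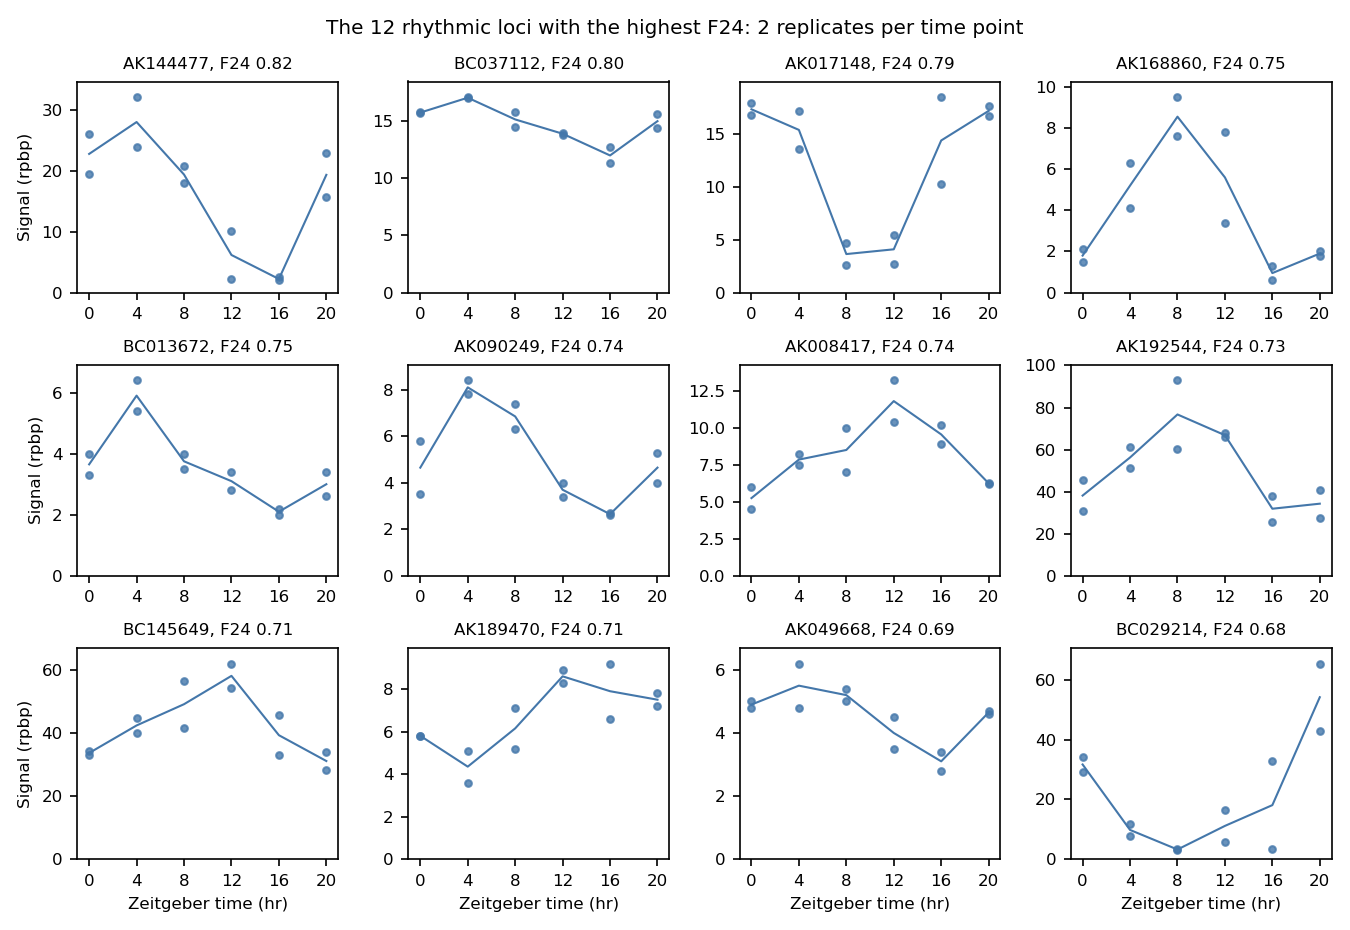
Signal in rpbp against ZT for the 12 rhythmic loci with the largest F24, with points for both replicates and a line through the time-point means. AK144477 falls from 24.0 and 32.2 rpbp at ZT4 to 2.5 and 2.0 at ZT16, and AK017148 shows its trough at ZT8 and ZT12.

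Phases of loci close to a named gene lay nearer to that of the gene than phases of loci far from one. For each locus the nearest named symbol over 6 rpbp was found, and 90 of 298 loci had it under 5 kb away. Phases of locus and neighbour lay within 2 hr in 44 of these 90 (48.9%) and in 41 of the 208 farther ones (19.7%). Among the 16 close loci with a rhythmic member it was 13 (81.2%), with a median gap of 0.537 hr, and among the 29 farther ones 4 (13.8%). Some close loci are untranslated exon of the neighbour itself, among them AK008417 (Foxo3), AK013557 (Slc1a2) and AK208597 (Tbc1d16). For these the comparison is within 1 gene and not between separate transcripts. The phase of every neighbour was used, also where it had no 24-hr rhythm. An example is Sirt7 (F24 = 0.0155) beside AK191498, which itself lies in Mafg. The neighbours were not replicates of each other and the shares carry no test. Of the 90 close loci, 16 had a rhythmic member and 13 a rhythmic neighbour. Locus and neighbour were both rhythmic in 5 of the 90 (5.56%) and in 6 of the 208 farther ones (2.88%). The 5 lay beside Fads2, Clic3, mKIAA1334, Alkbh6 and 4930402E16Rik.

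Fads2 itself had 47.2 and 74.0 rpbp at ZT8 and 22.4 and 21.6 at ZT16, close in course to AK192544, and peaked at 7.13 hr (F24 = 0.650, permutation p = 0.0019). Clic3, a chloride intracellular channel 715 bp from BC029214, had 64.6 and 44.9 rpbp at ZT20 and 4.5 and 2.9 at ZT8. Its phase of 20.5 hr (F24 = 0.694) differed from that of BC029214 by 0.135 hr, and its ZT16 replicates lay as far apart, at 44.2 and 4.0 rpbp. AK047938, at the long non-coding 4930556M19Rik, lay 2519 bp from mKIAA1334, and had 10.3 and 9.8 rpbp at ZT0 and 3.8 and 3.6 at ZT12. It peaked at 24.0 hr and mKIAA1334 at 23.4 hr. AI428936, 512 bp past the end of Alkbh6, a member of the AlkB oxygenase family, had 6.4 and 2.5 rpbp at ZT16 and at most 1.0 at ZT0, ZT4, ZT8 and ZT20.

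**Figure D4:**
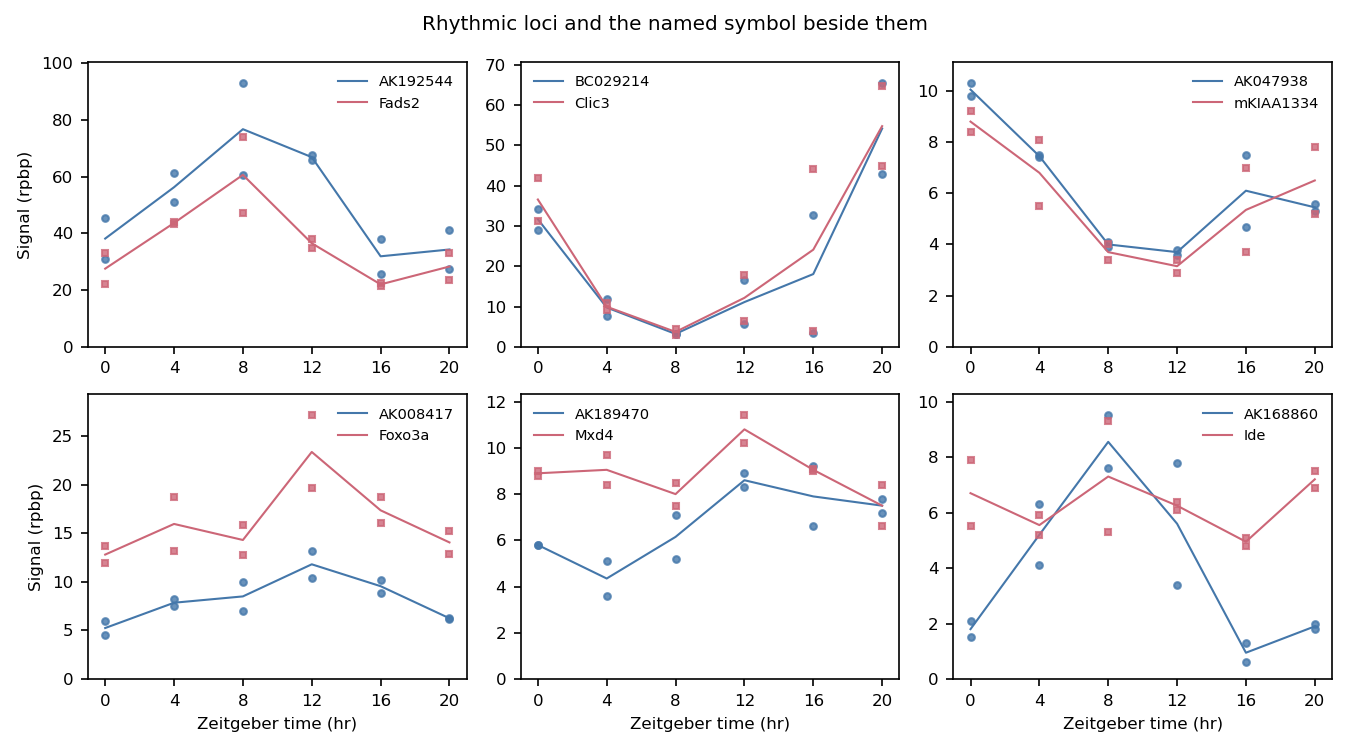
Signal in rpbp against ZT for 6 loci (both replicates and time-point means) together with their nearest named symbol. AK192544 and Fads2 rise together at ZT8, BC029214 and Clic3 at ZT20, while Ide, from 4.8 to 9.3 rpbp, has no 24-hr wave beside AK168860.

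The members that lie in untranslated exons allow a comparison within 1 gene. There were 24 such members (at least 90% of the span), and the host gene was in the table under its own name for 22, with the member on its 3′ side in 21. For 17 the host was over 6 rpbp and tested. Of the 24 members, 7 were rhythmic (29.2%, against 14.4% of all members and 15.2% of all symbols). All 7 were among the 17 with a tested host (41.2%). They lay at Foxo3, Mxd4, Mafg (AK191498 and AK197782, merged into 1 locus), Slc1a2, Zbtb44 and Tbc1d16. AK208597, at Tbc1d16, was over 6 rpbp in 1 library only and kept its call in 7 of 12 fits that left out 1 library. A difference between these shares was not tested. The host was rhythmic for 4 of the 17, and both were only for the 2 members at Mafg, a small Maf transcription factor. AK191498 had 48.2 and 44.4 rpbp at ZT12 against 19.1 and 17.2 at ZT0, and Mafg 27.0 and 34.8 against 14.5 and 19.9. Foxo3 (Foxo3a in the table) had a phase of 12.3 hr, near that of AK008417, with an F24 of 0.434 (permutation p = 0.0551). Mxd4 had an F24 of 0.194 (permutation p = 0.396) against 0.707 for AK189470. The other way round, Sh3pxd2a, a podosome scaffold, and Rora, a nuclear receptor of the clock, were rhythmic while EG329070 (F24 = 0.477) and AK087905 (F24 = 0.0583) at their 3′ ends did not pass. Whether member and host differ in F24 was not tested.

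**Figure D5:**
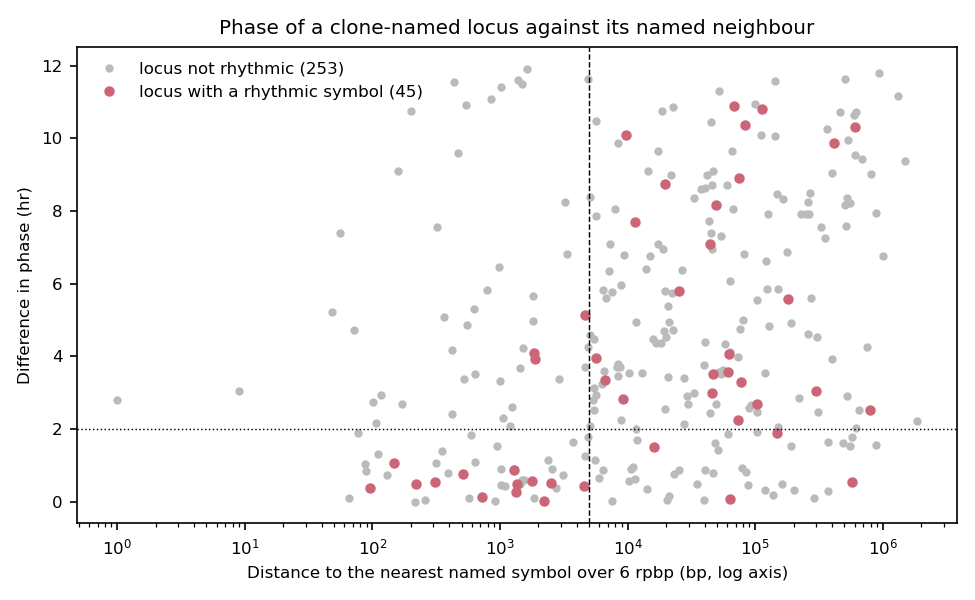
Difference in phase between each of the 298 loci and its nearest named symbol over 6 rpbp (hr) against their distance (bp, log axis), with the 45 loci that have a rhythmic member in red. Under 5 kb (dashed), 13 of 16 red points lie at or below 2 hr (dotted), and farther away 4 of 29 do. Some of the close loci are untranslated exon of the named gene itself.

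A test for differences of any shape between the 6 time points called 43 members by limma (adjusted p under 0.05), 11.5% against 7.65% of all 6284 symbols. They lay in 36 loci, and 16 of the 43 were rhythmic as well. With 1 symbol per locus, 24 of 288 passed (8.33% against 6.58% of all). By locus, 12 of the 36 were highest at ZT8 (33.3%) and 16 lowest at ZT16 (44.4%), against 25.8% and 26.4% of the 481 symbols called in the table. The median log2 deviation of the most GC-poor bin was -0.411 and -0.299 in the ZT16 libraries and -0.316 and -0.112 in those of ZT12. In those of ZT8 it was 0.051 and 0.682. Its part in the calls was examined only by a new fit with the GC trend removed. That fit called 33 members (8.82%, against 11.5% in the main fit) and 503 of all 6284 symbols (against 481). The count moved with single libraries, and so did that of the whole table. It was 12 without ZT0 replicate 1 (3.21% against 2.71% of all) and 21 without replicate 2, 26 and 22 without those of ZT4, 40 and 23 without those of ZT8, 18 and 17 without those of ZT12, 53 and 43 without those of ZT16, and 14 and 15 without those of ZT20. The most, 53 without ZT16 replicate 1, were 14.2% against 10.2% of all. Among the 4 times sequenced in 1 lane, 5 members differed (1.34% against 1.91% of all): AK144477, DQ693081, AK085420, AK158233 and DQ563521. AK085420 and AK158233, which overlap, were each over 6 rpbp in 1 library only. Between ZT8 and ZT20, 7 differed (1.87% against 1.53% of all): AK168860, AK016444, AK017148, BC029214, AK149509, AK087624 and BC057022. AK087624 was over 6 rpbp at ZT8 only (mean 8.2 rpbp), so this test drew on the values that admitted it, as for AK149509. The study describes AK087624, AK036974, AK007907 and AK079377 as a cluster of rhythmically transcribed non-coding RNAs targeted by CLOCK and BMAL1. Here AK087624 (F24 = 0.305) and AK036974 were not called rhythmic, and AK007907 stayed under the threshold. BC057022 was over 6 rpbp in 1 library only.

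The 7 symbols of the longest locus moved together. It covers chr16:77236562-77691644, overlaps 2810055G20Rik and holds 3 microRNA genes, and all 7 overlapping symbols passed by limma (adjusted p from 0.0103 to 0.0247), which is 1 result since they share sequence. AK012955, the highest of them, had 13.1 and 11.1 rpbp at ZT20, 8.7 and 14.9 at ZT8, 5.1 and 3.8 at ZT12, and 3.2 and 4.0 at ZT16. The 4 libraries of ZT12 and ZT16 were the lowest, and with high values at both ZT8 and ZT20 the F24 was only 0.230. Within lanes none of the 7 passed by limma, with an adjusted p of 0.0715 for AK012955 among the 4 times of 1 lane and of 0.978 between ZT8 and ZT20, and the deviation of the GC-poor bin was below 0 in the 4 libraries of ZT12 and ZT16 and in 2 others. The other loci of several symbols with 5 each, BC039766 and AK083021 (at Sfrs18), had no called member in either test.

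AK149509 is Cyp2a22, a cytochrome P450, and had 5.2 and 8.4 rpbp at ZT8 against at most 0.1 at ZT12 and ZT16 (limma adjusted p = 0.0177). Only the 8.4 in ZT8 replicate 2 had brought it over the threshold, so this test drew on the value that chose it. AK050091, over the pseudogene Gm15710, had 4.2 and 11.9 rpbp at ZT8, 7.7 and 3.8 at ZT0, and at most 0.6 at ZT12, ZT16 and ZT20 (adjusted p = 0.0309). AK149509 and AK050091 were both low in the dark. AK050091 was over 6 rpbp in only 2 libraries, 1 of ZT0 and 1 of ZT8, so its test also drew on the values that chose it. AK011460, overlapping the snoRNA SNORD60 next to Rab26, had 6.2 and 3.2 rpbp at ZT20. It had 0.2 at ZT12 replicate 1, with replicate 2 listed at 0 (limma adjusted p = 0.0435), and was over 6 rpbp in 1 library only.

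Of the 8 called loci with the largest ratio of time-point means, 4 were short DQ spans, which are printed here because the span is the whole feature that was measured. The sequences are those of the plus strand of mm9, in lower case throughout since no part was singled out.
DQ693081: ggctacacatcatctaaagacaactgctca
DQ563521: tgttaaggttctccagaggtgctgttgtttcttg
DQ712936: gaaccaaagacaaagcctaaagcctgtta
DQ704729: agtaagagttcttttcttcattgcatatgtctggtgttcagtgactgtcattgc
DQ693081 (chr19:37331866-37331895) lies 1025 bp from AK168860. It had 16.4 and 8.2 rpbp at ZT12, 8.1 and 3.4 at ZT8, 2.6 and 2.4 at ZT4, 0.9 and 2.4 at ZT20, and was listed at 0 in all 4 libraries of ZT0 and ZT16. The time points differed by limma over all 6 (adjusted p = 0.00426) and among the 4 of 1 lane (adjusted p = 0.00428). It was called rhythmic with a phase of 10.4 hr (F24 = 0.508, permutation p = 0.0158). DQ693081 was over 6 rpbp only at ZT8 and ZT12, in 3 libraries, so these tests drew on the values that admitted it. DQ563521 (chr8:119733963-119733996, no gene) had 15.7 and 6.3 rpbp at ZT16, 10.7 and 9.0 at ZT12, 7.6 and 5.3 at ZT4, 3.1 and 2.3 at ZT8, and at most 1.5 at ZT0 and ZT20 (limma adjusted p = 0.00868).

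DQ712936 (chr15:83185731-83185759) and DQ704729 (chr6:128395328-128395381) belong to runs of such spans. The run on chromosome 15 holds 8 DQ members within 2659 bp and that on chromosome 6 holds 5 within 3239 bp, all in Gm10069. DQ712936 had 6.4 and 4.9 rpbp at ZT8 and at most 2.3 elsewhere (limma adjusted p = 0.0369), with only the 6.4 over the threshold that chose it. DQ704729 had 7.1 and 6.2 at ZT0 and at most 0.4 at ZT4 (limma adjusted p = 0.0309). It was over 6 rpbp in 3 libraries only, so this test too drew on the values that admitted it. In each run 2 members passed by limma, the others being DQ554804 and DQ697726. Short spans varied more between replicates. The median residual SD on the log2(rpbp + 1) scale was 0.797 for the 28 members under 200 bp and 0.281 for the 346 longer ones, against 0.253 for all symbols tested.

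Some members span microRNA genes. In the annotation 7 loci held 11 microRNA genes, and RefSeq (GRCm38.p6) gave mature sequences for 8 of them. For 7 of these the arm that is usually the more abundant is printed here, with the seed (bases 2 to 8) in capitals. The locus of AK045637 holds Mir29b-2 and Mir29c, whose 3p arms share 1 seed, that of AK008813 holds Mir22, that of AK012955 holds Mir99a, Mirlet7c-1 and Mir125b-2, and that of AK021368 holds Mir101a.
mmu-miR-29b-3p: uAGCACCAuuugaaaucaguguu
mmu-miR-29c-3p: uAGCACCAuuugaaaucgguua
mmu-miR-22-3p: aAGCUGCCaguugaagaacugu
mmu-miR-99a-5p: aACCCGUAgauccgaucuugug
mmu-let-7c-5p: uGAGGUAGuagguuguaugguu
mmu-miR-125b-5p: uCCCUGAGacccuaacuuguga
mmu-miR-101a-3p: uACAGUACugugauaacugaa
The signal is that of the host transcript and not of the mature microRNA. AK045637, on chromosome 1, had 21.1 and 28.2 rpbp at ZT8 and 31.1 and 30.0 at ZT20 (F24 = 0.429, permutation p = 0.0855) and AK008813, on chromosome 11, had 16.7 to 34.1 rpbp over the day (F24 = 0.285, permutation p = 0.220). Neither was rhythmic, and neither differed between time points by limma (adjusted p = 0.475 and 0.334). BC027389, the host of Mir421 and Mir374 on the X chromosome, stayed between 3.6 and 6.4 rpbp.

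AK021368, over Mir101a on chromosome 4, was called rhythmic with a phase of 9.66 hr (F24 = 0.503, permutation p = 0.0429). It had 18.1 and 21.5 rpbp at ZT8, 11.5 and 22.1 at ZT12, and 11.2 and 10.0 at ZT0, so that the ZT12 replicates lay apart. Its call held in only 2 of 12 fits that left out 1 library. CS444445 and CS447912 cover mature microRNAs themselves. Their spans, chr1:23298553-23298575 and chr19:6264658-6264679, equal the mature sequences of Mir30c-2 and Mir194-2, and the capitals again mark the seed.
mmu-miR-30c-5p: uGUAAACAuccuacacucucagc
mmu-miR-194-5p: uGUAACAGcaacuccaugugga
CS444445 ran from 0 to 8.4 rpbp and CS447912 from 0.6 to 13.1, with replicates far apart (residual SD of 1.06 on the log2(rpbp + 1) scale for each), and neither passed any test.

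The 250 bases before the annotated start were searched, on both strands, for 4 words tied to the clock: the E-box CACGTG, which BMAL1 and CLOCK bind, the D-box forms TTATGTAA and TTATGCAA, and TAGGTCA, the core of the element of REV-ERB and ROR receptors. None of the words contains another. The share in all 26187 such windows of the annotation was 6.34% for CACGTG, 0.852% for TTATGTAA, 0.722% for TTATGCAA and 2.22% for TAGGTCA. A locus entered with the window of its gene where a member shared over 0.9 of its extent with an annotated coding or long non-coding gene, which held for 101 loci. CACGTG was in 12 of these 101 (11.9%), TTATGTAA in 1, TTATGCAA in 0 and TAGGTCA in 1. Of the 13 windows of loci with a rhythmic member, 2 held CACGTG and none another of the words. These 2 are printed with the word in capitals, on the strand of the gene, BC145649 at chr6:31168434-31168683 and the coding gene of BC099567 and AK005608 at chr15:83197708-83197957 (both minus strand, mm9).
BC145649: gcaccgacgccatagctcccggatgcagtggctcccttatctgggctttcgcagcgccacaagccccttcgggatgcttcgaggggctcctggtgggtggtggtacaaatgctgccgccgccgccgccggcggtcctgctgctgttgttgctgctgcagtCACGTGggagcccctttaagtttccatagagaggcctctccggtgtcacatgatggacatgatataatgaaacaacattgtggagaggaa
BC099567: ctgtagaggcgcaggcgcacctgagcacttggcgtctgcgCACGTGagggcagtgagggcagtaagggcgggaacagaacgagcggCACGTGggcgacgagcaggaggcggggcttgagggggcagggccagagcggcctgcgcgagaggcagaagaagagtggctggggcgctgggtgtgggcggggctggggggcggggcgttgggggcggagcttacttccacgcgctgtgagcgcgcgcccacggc
A word in a window is a description of its letters. BC099567 and AK005608, named here after their values were seen, peaked at 6.90 and 7.12 hr (F24 = 0.519 and 0.583), with 6.3 and 4.7 rpbp at ZT8 for BC099567 and 6.2 and 4.9 for AK005608. BC145649 peaked at 10.0 hr. The window of AK144477, the locus with the largest F24, held none of the 4 words.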

How the data were processed

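The authors called bases with CASAVA 1.7 and aligned reads with TopHat to mm9 (per the submitters' processing notes). They deposited 1 normalized signal per symbol and library: read coverage over the merged exons divided by exon length (rpbp), scaled to equal read numbers and rounded to 1 decimal, without strand. Depth per library is not given in that table, so no interval was computed. The deposited rhythm statistics (24-hr component, phase and p-value of the authors) are their own comparison and were not used.

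The members, gene lists and tests were chosen with earlier results of these data known. Spans that only touch were not counted as overlapping. F24 was taken over the untransformed values of the 12 libraries, with a one-sided permutation test (100000 permutations). Time points were compared with limma 3.58.1 in R 4.3.3 on log2(rpbp + 1), with Benjamini-Hochberg adjustment over all 6284 symbols over 6 rpbp. Python 3.11.15 was used otherwise. Both tests were tested on simulated data. Named loci, each given by its symbol of highest mean, were the 6 highest, 3 on either side of the threshold, 12 rhythmic by F24, 8 called by limma by the ratio of time-point means, the 3 with most symbols and the 3 flattest. Other names were chosen for their neighbour, host, microRNA or sequence. Alternatives were other thresholds, scales, pseudocounts, scalings, GC correction, blocks, 1 symbol per locus and each library left out. Coordinates are mm9, counted from 1, and annotation is GENCODE M1.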

Additional observations from a re-analysis of the deposited data

How the results depend on the processing

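Without each library in turn, rhythmic members numbered 43 to 70 and members differing between time points 12 to 53. Strongly rhythmic members numbered 22 to 39, with 39 without ZT0 replicate 1 and 38 without ZT8 replicate 2. Of all 6284 symbols, 515 and 701 were strongly rhythmic in these 2 fits, against 401 with all libraries. Rhythmic members (54 of 374) were 25 of 169 (14.8%) at a threshold of 12 rpbp, 83 of 651 (12.7%) at 3 rpbp and 170 of 2213 (7.68%) with none. The whole table had 508, 1418 and 2223 rhythmic symbols at these thresholds, against 954 at 6 rpbp. Strongly rhythmic members (25) were 11 at 12 rpbp and 67 with no threshold, with 213 and 884 such symbols in the table. Members differing by limma (43) were 14 at 12 rpbp and 15 with none, with 329 and 133 in the table. An adjusted permutation p left 3 rhythmic and 1 strongly rhythmic member, among 45 and 40 in the table. With the number of lanes as a block, strongly rhythmic members were 45 (12.0%) and members differing by limma 23 (6.15%). Of all 6284 symbols, 733 and 292 were called with this block. With 1 symbol per locus, which also cut the symbols tested from 6284 to 4818, limma called 24. The cause of these changes was not tested. Rescaled libraries, removal of the GC trend and, chosen after seeing the data, spans of at least 200 bp kept all 3 counts within 1.5 times. Log2 values, 10000 permutations and time-point means in the ratio did so for both rhythm counts, and a pseudocount of 0.1 for that of limma.

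The replicate numbers were checked for pairing. Deviations of same-numbered libraries correlated over 0.1 in 5 of 15 pairs of time points (-0.12 to 0.32). Yet 5 of 6 time points correlated best with their own number. These values do not settle whether the numbers pair the libraries, and the main tests treated them as unpaired. A replicate block gave 60 rhythmic, 32 strongly rhythmic and 40 differing members. Among the 54 rhythmic members, 49 kept their call with the block, 48 with the lane block, 43 with rescaled libraries and 39 with the GC trend removed. With 2 libraries per time point and values rounded to 1 decimal, differences of low members were not resolved.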

Other observations

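AK172090, a long non-coding locus (chr5:74489108-74490361, 2700023E23Rik) that overlaps an annotated snoRNA gene, had 226.8 rpbp in ZT20 replicate 1 and 19.9 to 76.7 rpbp in the other 11 libraries. AF357401, over Snora61, was likewise highest in that library, at 1816.9 rpbp against 99.1 to 895.6 in the others. Both were picked after their values were seen, and neither differed between time points by limma (adjusted p = 0.797 and 0.488). The summed signal of the whole table was also highest in that library, at 160545.0 rpbp against 118342.4 to 140965.5.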
